A study of Mus musculus with 4 samples.

Results

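Rps2, Purb and Tsc22d2 are the gene names given to 3 places where integration sites of an HIV-based vector piled up within a few kb in mouse fibroblasts carrying TAF3 fusion proteins. All integration sites were taken that lay in 3 regions of the mm9 genome: chromosome 17 from 24830001 to 24890000 (Rps2), chromosome 11 from 6345001 to 6405000 (Purb) and chromosome 3 from 58190001 to 58270000 (Tsc22d2). These regions held 72, 47 and 62 sites, 181 of the 122029 distinct sites in the series. The loci were chosen by their counts of sites of the wild-type PHD domain alone, whose list they nearly top, so those counts in them are a description and not a finding. With at least 5 PHD WT sites joined over gaps of at most 1000 bp called a focus, 1222 foci existed, with a median of 7 sites. The Rps2, Purb and Tsc22d2 foci held 30, 25 and 24 PHD WT sites, at ranks 2, 3 and 5 (Purb tied with the focus at rank 4), and the next foci down the list, at ranks 6 and 7, held 23 each. The gene names and the word promoter come from the choice of the members. No mm9 annotation was used here, so the distance of any site from a transcription start was not measured.

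The cells were Psip1 (-/-) mouse embryonic fibroblasts of strain C57BL/6, the E2 knockout line, without the host factor LEDGF/p75 that normally guides the HIV integrase to chromatin. All 4 libraries came from this background. Each received a plasmid for TAF3 joined to the integrase-binding domain of LEDGF, recovered over 24 to 36 h, was sorted for GFP and was then infected with a VSV-G pseudotyped HIV vector carrying luciferase (500 ng, with polybrene at 8 µg/mL). Harvest followed 48 to 72 h later. The groups were full-length TAF3 (Full) and the PHD domain alone (PHD), each as wild type (WT) or with the M880A substitution, and each was 1 library. The Full WT, Full M880A, PHD WT and PHD M880A lists held 22486, 39292, 25363 and 34888 distinct sites, with summed read numbers between 2085037 and 3651264. By their read names, Full M880A, PHD WT and PHD M880A were lanes of 1 flow cell and Full WT came from another, so in any comparison with Full WT the flow cell and the fusion cannot be told apart. No group had a replicate, so every interval below covers counting error only and every comparison is between libraries. The cell type was not checked against markers, since integration sites carry no expression values.

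TAF3 is a subunit of TFIID, the general transcription factor that recognises core promoters and starts assembly of the RNA polymerase II preinitiation complex. Its PHD finger binds histone H3 trimethylated on lysine 4, a mark concentrated around the starts of active genes, and the M880A substitution lies in the pocket that reads this mark. A fusion with the integrase-binding domain steers integration to the places where it sits, so a pile of sites serves as a footprint of the fusion. Rps2 encodes a protein of the small ribosomal subunit and is transcribed in nearly all cells. Purb encodes a protein that binds purine-rich single-stranded DNA and RNA and represses smooth muscle actin transcription. Tsc22d2 encodes a leucine zipper protein of the TSC22 family.

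In the RefSeq annotation of GRCm38.p6, used for gene order only, the protein-coding neighbours of Rps2 were Tbl3 and Rnf151 on one side and Ndufb10, a subunit of respiratory complex I, and Rpl3l on the other. The noncoding genes Snhg9, Snora78 and Snora64 overlapped Rps2. Purb lay between H2az2, a histone variant gene, with Ppia beyond it, and Myo1g, with Ccm2 beyond it. Tsc22d2 lay between Pfn2, with Rnf13 beyond it, and Serp1, with Eif2a beyond it. How many of these genes fall inside the mm9 regions was not determined.

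The promoter sequences of 2 of the 3 genes were in the RefSeq table used (build GRCm38.p6) and are shown because integration clustered at the loci that carry their names. Each run is the 250 bases before the annotated start, on the gene's strand, from chr17:24719813-24720062 on the plus strand for Rps2 and chr11:6476077-6476326 on the minus strand for Purb. These positions belong to another build than the integration sites, and the sites were not placed on these letters. Capitals mark matches, on either strand, to a TATA box (TATAAA), a GC box (GGGCGG), an ETS core (CCGGAAG) and a cyclic AMP response element (TGACGTCA).
Rps2 promoter: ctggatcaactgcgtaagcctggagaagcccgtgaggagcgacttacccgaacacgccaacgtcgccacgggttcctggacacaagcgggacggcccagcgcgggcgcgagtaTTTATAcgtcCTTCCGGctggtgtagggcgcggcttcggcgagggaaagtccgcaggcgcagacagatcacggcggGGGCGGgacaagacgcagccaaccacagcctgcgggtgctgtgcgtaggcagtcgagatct
Purb promoter: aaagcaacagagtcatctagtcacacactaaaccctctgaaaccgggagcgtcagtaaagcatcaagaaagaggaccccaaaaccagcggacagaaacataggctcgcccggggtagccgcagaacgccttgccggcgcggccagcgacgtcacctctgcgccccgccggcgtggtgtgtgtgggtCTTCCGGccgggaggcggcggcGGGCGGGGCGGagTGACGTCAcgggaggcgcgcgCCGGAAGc

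Both promoters are rich in CpG dinucleotides, the sequence class that usually carries H3 lysine 4 trimethylation. Each held 29 CpG in 250 bases, against a median of 6.00 over 32851 promoters of the table, and 6.78% of promoters held as many or more. The G and C content was 65.2% for Rps2 and 66.0% for Purb, against a median of 52.4%. The Rps2 window held 1 TATA box match on the opposite strand, a motif found in 12.4% of the promoters, 1 GC box match (32.7% of promoters) and 1 ETS core match (6.91%). The Purb window held 2 GC box matches that overlap by their end base, 2 ETS core matches and 1 cyclic AMP response element match, found in 1.55% of promoters, and no TATA box match. CCAAT was also searched and matched in neither window, against 33.8% of the promoters.

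To draw the edges of each focus, the sites of all 4 lists were pooled and joined over gaps of at most 1000 bp. The fullest cluster of each region is called its core. Pooling does not weigh the libraries equally. PHD WT supplied 48.4%, 54.3% and 45.6% of the sites in the Rps2, Purb and Tsc22d2 cores. Over all pooled clusters of at least 10 sites it supplied 44.3%, and PHD M880A 6.65%. The Rps2 core ran from 24855719 to 24861259 (5541 bp, 62 sites), the Purb core from 6371858 to 6375636 (3779 bp, 46 sites) and the Tsc22d2 core from 58219502 to 58227258 (7757 bp, 57 sites). Purb was the most compact, with 12.2 sites per kb, followed by Rps2 with 11.2 and Tsc22d2 with 7.35. Among the 1162 clusters of the genome with at least 10 sites, the median was 6.56 sites per kb and the median width 2462 bp. Only 0.344% of those clusters were wider than the Tsc22d2 core and 1.89% were wider than the Rps2 core, against 16.0% for Purb.

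Full WT placed most sites at Rps2 and fewest at Tsc22d2, and PHD M880A the reverse. Counts are given as sites and as sites per 10000 of the library, with exact Poisson 95% intervals. In the Rps2 core, Full WT had 18 sites (8.00 per 10000, 4.74 to 12.7), Full M880A 11 (2.80, 1.40 to 5.01), PHD WT 30 (11.8, 7.98 to 16.9) and PHD M880A 3 (0.860, 0.177 to 2.51). Both WT libraries were thus above both M880A libraries there, and the intervals of Full WT and Full M880A overlapped slightly. Those of Full WT and PHD WT overlapped too. In the Purb core, Full WT had 8 sites (3.56, 1.54 to 7.01), Full M880A 7 (1.78, 0.716 to 3.67), PHD WT 25 (9.86, 6.38 to 14.6) and PHD M880A 6 (1.72, 0.631 to 3.74). At this locus the intervals of Full WT, Full M880A and PHD M880A overlapped, and that of Full WT also overlapped slightly with that of PHD WT. In the Tsc22d2 core, Full WT had 6 sites (2.67, 0.979 to 5.81), Full M880A 12 (3.05, 1.58 to 5.33), PHD WT 26 (10.3, 6.70 to 15.0) and PHD M880A 13 (3.73, 1.98 to 6.37). The 3 libraries other than PHD WT had overlapping intervals at Tsc22d2 as well.

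**Figure D1:**
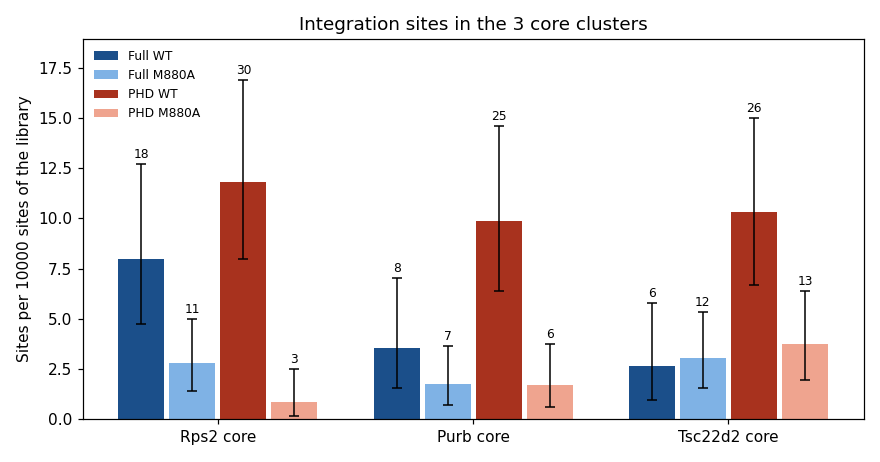
Bars show the integration sites in each core per 10000 sites of the library, error bars are exact Poisson 95% intervals (counting error), and the number above each bar is the count of sites. PHD WT, whose list the loci nearly top, stands between 9.86 and 11.8 at all 3 genes. Full WT goes from 8.00 at Rps2 to 2.67 at Tsc22d2, and PHD M880A from 0.860 to 3.73.

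Read against the 1162 clusters, the counts of the 3 libraries other than PHD WT placed the genes differently. Whether these counts entered the choice of the loci is not known. For Full WT, Rps2 was among the fullest clusters, with 10 clusters (0.861%) holding 18 or more sites, whereas 28.2% held at least the 6 sites of Tsc22d2. For PHD M880A the order was the reverse. The 13 sites of Tsc22d2 were reached by 4 clusters (0.344%) including itself, the 6 of Purb by 1.98% and the 3 of Rps2 by 11.4%, and 42.3% of the clusters held no PHD M880A site. For Full M880A, 5.77% of clusters reached the 11 sites of Rps2, 4.04% the 12 of Tsc22d2 and 15.5% the 7 of Purb. Wide clusters have room for more sites. Per kb, the PHD M880A density was 1.68 sites at Tsc22d2, 1.59 at Purb and 0.541 at Rps2, so Purb and Tsc22d2 lay close together on this scale.

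The Rps2 sites were spread over the whole core with several peaks. The PHD WT sites had an interquartile width of 3095 bp around a median at 24859427. In 500 bp windows from 24855501 onward, the 12 windows of the core held 1, 2, 0, 2, 4, 2, 1, 3, 4, 1, 7 and 3 PHD WT sites. The fullest window, 24860501 to 24861000, lay near the right edge. Full WT had 0, 2, 1, 0, 2, 2, 1, 1, 2, 2, 2 and 3 sites in the same windows. Its median, at 24859465, lay 38 bp from that of PHD WT, closer than in 93.6% of the 391 clusters with at least 5 sites of each. The distance was 140 bp among sites with at least 10 reads and 145 bp with same-strand positions within 10 bp merged. By order statistics the interval of the Full WT median ran from 24857778 to 24860642. That of the PHD WT median ran from 24858253 to 24860560, so 38 bp is finer than these counts resolve. Full M880A was thinner in the middle, with 1, 0, 1, 0, 2, 1, 0, 0, 0, 3, 2 and 1 sites, and its median lay 814 bp to the right of that of PHD WT. This offset did not hold its direction: it was 408 bp to the right among sites with at least 10 reads and 181 bp to the left with same-strand positions within 10 bp merged. It had a gap of 1990 bp without a site, from 24858251 to 24860241. The 3 PHD M880A sites were at 24858216, 24860142 and 24860294. Every Full WT, Full M880A and PHD M880A site in the Rps2 core had a PHD WT site within 500 bp, and 12 of the 18 Full WT sites had one within 100 bp. PHD WT sites spanned nearly the whole core with gaps of at most 981 bp. The 500 bp result was thus fixed by their density and says nothing about shared targets. Their median gap was 115 bp, so the 100 bp count depends on density too.

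The orientation of integration, given by the strand, was uneven along the Rps2 core in PHD WT. All 10 successive sites from 24857254 to 24859236 were on the plus strand, and the remaining 20 sites held 8 plus and 12 minus. This stretch was picked after the positions had been seen. Among the 19 clusters with at least 20 PHD WT sites, the longest run on 1 strand had a median of 5.00 sites, and Rps2 was the 1 cluster that reached 10. More sites leave room for a longer run, and Rps2 held 30. The run counts 24857732 and 24857735 separately, and its sites at 24857254, 24858382 and 24858573 had 2, 4 and 2 reads. Runs were not recomputed with a minimum of reads or with near positions merged. In the middle of 3 equal parts of the core, 24857566 to 24859412, PHD WT had 8 plus and 2 minus sites and Full WT had 2 plus and 4 minus. Over the whole core the strands were nearly even, with 32 plus and 30 minus sites.

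The Purb core was the shortest. PHD WT sites had an interquartile width of 1333 bp around a median at 6373955. The 9 windows of 500 bp from 6371501 onward held 1, 2, 2, 4, 4, 5, 6, 1 and 0 PHD WT sites, with the most in the window from 6374501 to 6375000. On a grid moved by 250 bp the 8 windows from 6371751 held 1, 4, 2, 4, 4, 6, 3 and 1, and with a minimum of 10 reads the fullest window began at 6374001. Full WT had 0, 0, 0, 0, 2, 1, 1, 3 and 1 sites. Its first site was at 6373625 and its last at 6375636, beyond every other library. The Full WT median of 6374787 lay 832 bp to the right of that of PHD WT, and 15.1% of the 391 clusters had medians further apart. Full M880A had 0, 0, 1, 1, 2, 1, 1, 1 and 0 sites, with a median of 6373625. PHD M880A had 0, 0, 0, 3, 1, 0, 2, 0 and 0, with a median of 6373467, and all 6 of its sites had a PHD WT site within 100 bp. Between Full WT and Full M880A the medians were 1162 bp apart, with 8 and 7 sites behind them, and 920 bp apart with same-strand positions within 10 bp merged. Medians at least 1000 bp apart were found in 16.8% of the 191 clusters with at least 5 sites of each.

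The Tsc22d2 core was the widest, and the libraries covered overlapping stretches of it with different ends. In 500 bp windows from 58219501 to 58227500, Full M880A had 5, 0, 2, 2, 1, 1, 0, 0 and 1 sites in the first 9 windows and none in the other 7. Full WT had 2 sites in the first window, 2 in the window from 58221501, and 1 each in those from 58222001 and 58223001. Within the core, neither Full library had a site to the right of 58223984. PHD WT began further right and had 0, 0, 1, 4, 1, 5, 2, 1, 6, 2, 2, 0, 0, 2, 0 and 0 sites. On a grid moved by 250 bp no window held more than 4 PHD WT sites, so the peak of 6 depends on the grid. PHD M880A reached furthest right, with 0, 0, 0, 2, 1, 1, 0, 2, 0, 2, 0, 3, 0, 0, 1 and 1.

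The medians at Tsc22d2 followed the same order from left to right: 58220762 in Full M880A, 58221755 in Full WT, 58223149 in PHD WT and 58224166 in PHD M880A. The Full M880A median lay 2387 bp to the left of that of PHD WT, and 3731 bp among sites with at least 10 reads. Medians of these libraries were at least 1000 bp apart in 19.0% of the 248 clusters with at least 5 sites of each, and further apart than here in 1.61%. The Full WT median lay 1394 bp to the left of that of PHD WT. For that pair 11.5% of 391 clusters had medians at least 1000 bp apart and 4.86% were further apart than here. A wide core leaves room for a large offset. As a percent of cluster width, the Full M880A offset was 30.8%, and 14.9% of clusters exceeded it, while the Full WT offset was 18%, and 31.5% exceeded it. Full WT rests on 6 sites. The PHD M880A median lay 1018 bp to the right of that of PHD WT, 2411 bp from that of Full WT and 3405 bp from that of Full M880A. Among sites with at least 10 reads the distance between the PHD medians was 79 bp. Offsets of at least 1000 bp were common in the few clusters with 5 or more sites of PHD M880A and of the other library: 44.8% of 29 clusters with PHD WT, 45.8% of 24 with Full WT and 52.4% of 21 with Full M880A. All these offsets depend on the core edges. With gaps of 500 bp the Tsc22d2 core ran from 58220672 to 58225430, without the left end. It then kept 7 Full M880A, 4 Full WT, 24 PHD WT and 11 PHD M880A sites. Medians within this shorter core were not computed.

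Cut into 3 equal parts, the Tsc22d2 core showed where each library lay. From 58219502 to 58222086 there were 10 of the 12 Full M880A sites, 4 of the 6 Full WT, 8 of the 26 PHD WT and 4 of the 13 PHD M880A. From 58222087 to 58224672 there were 2, 2, 15 and 4 sites in the same order, and from 58224673 to 58227258 there were 0, 0, 3 and 5. At the left end, 5 Full M880A and 2 Full WT sites lay between 58219502 and 58219995, a stretch in which neither PHD library had a site. These 7 sites were more than 500 bp from any PHD WT site. The strands also differed between the PHD libraries, with 9 plus and 17 minus sites in PHD WT and 10 plus and 3 minus in PHD M880A, and neither split was tested.

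**Figure D2:**
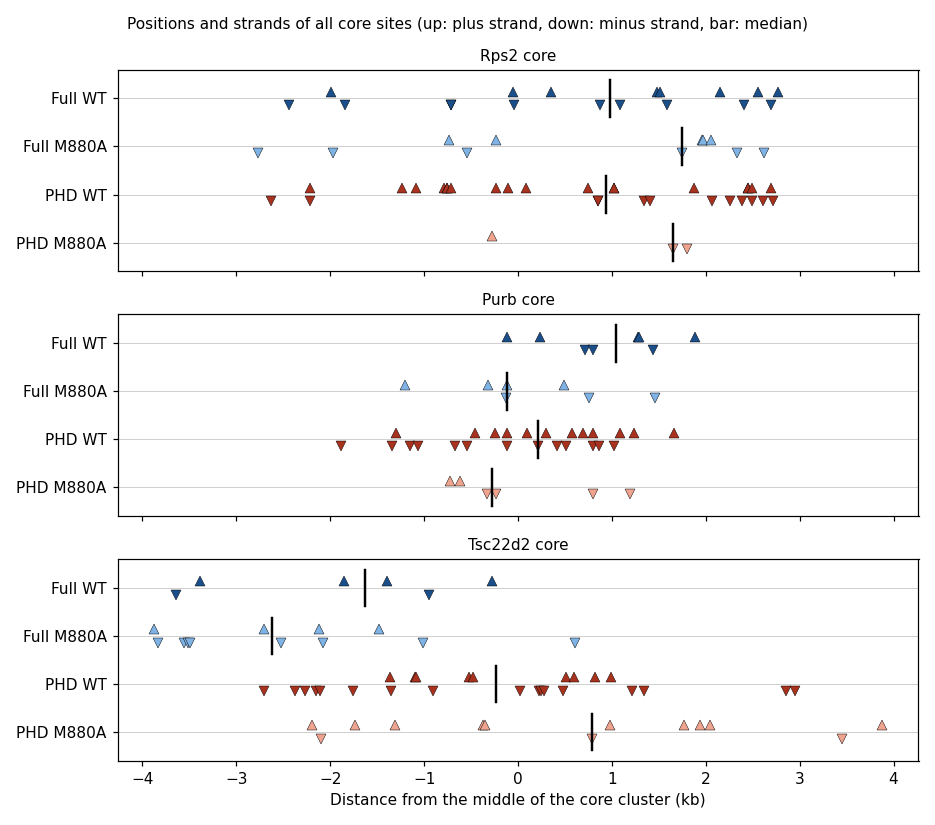
Each triangle is 1 integration site in a core, placed by its distance in kb from the middle of the core, with a row for each library, triangles up for the plus strand and down for the minus strand, and a black bar at the library's median. The medians of Full WT and PHD WT nearly coincide at Rps2 (38 bp apart, finer than the counts resolve), while at Tsc22d2 the medians run from Full M880A on the left to PHD M880A on the right.

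Few sites lay outside the cores. The flanks, 54.5 kb at Rps2, 56.2 kb at Purb and 72.2 kb at Tsc22d2, held 10, 1 and 5 sites, where the mean density of the 4 lists over 2570 Mb would give 2.59, 2.67 and 3.43. The cores took up 9.23%, 6.30% and 9.70% of the loci and held 86.1%, 97.9% and 91.9% of their sites. Each core is by definition the fullest cluster of a region named for its pile of sites. These shares are therefore a description and not a finding. At Purb the 1 flanking site was a Full WT site at 6369889, and to the right of the core the next site of any library was 33.3 kb away. Full M880A, PHD WT and PHD M880A had 0 sites in the Purb flanks, which allows up to 0.764, 1.18 and 0.860 per 10000 by a floor of 3 sites (two-sided exact Poisson limits 0.939, 1.45 and 1.06).

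The Rps2 flanks held more sites and of every library: 1 Full WT, 2 Full M880A, 4 PHD WT and 3 PHD M880A. Of the 4 PHD WT sites, 3 lay together at 24832374, 24832658 and 24832877, near the left end of the region, and 1 at 24844426. The PHD WT flank count was 7.44 times that at mean density (2.03 to 19.1), and for the other libraries the interval included 1. That interval takes the 4 sites as independent, although 3 lay together, with 65, 4 and 6 reads. Among sites with at least 10 reads, 2 PHD WT flanking sites remained (1.21 per 10000, 0.146 to 4.36). PHD M880A had 3 sites in the flanks and 3 in the core. The flanking site at 24854698 lay 1021 bp from the core, and with gaps of 2000 bp it joined the core, for 4 inside and 2 outside. At Tsc22d2 the flanks held 3 Full M880A and 2 PHD M880A sites, all on the plus strand, and 0 sites of either WT library, which allows up to 1.33 per 10000 for Full WT and 1.18 for PHD WT by the same floor (Poisson limits 1.64 and 1.45). The nearest sites to the Tsc22d2 core were 21.4 kb away on the left and 4.58 kb on the right, both of Full M880A.

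**Figure D3:**
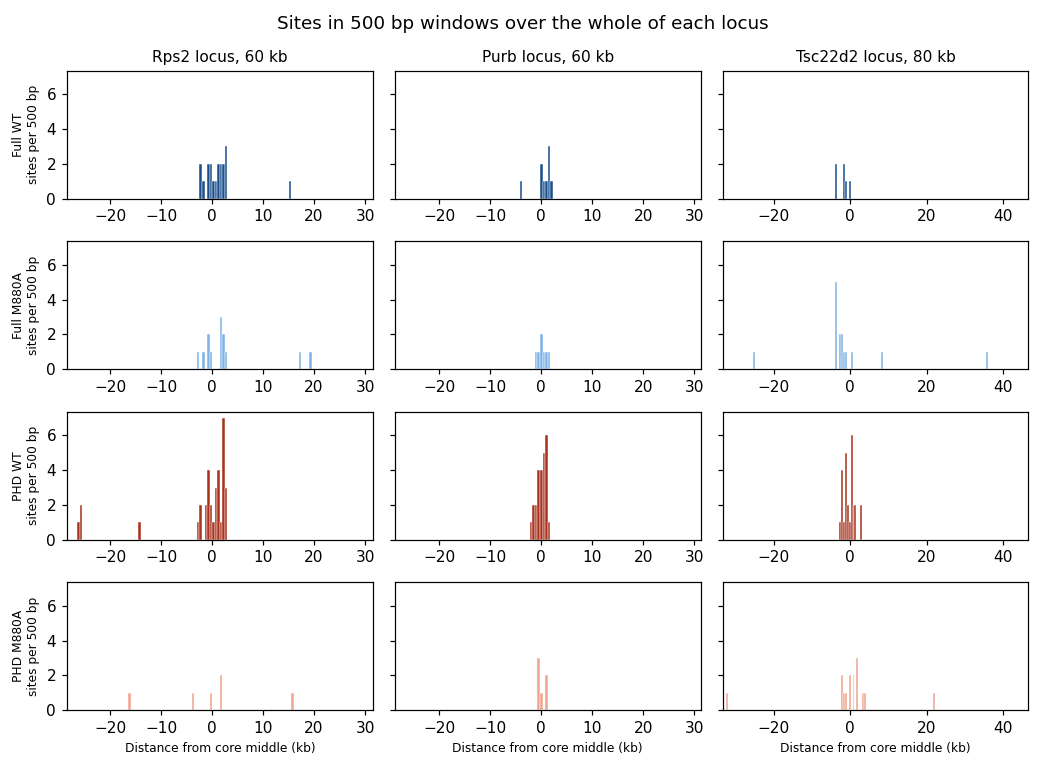
Bars count sites in windows of 500 bp across the whole of each locus, against the distance in kb from the middle of the core, with a row for each library and a column for each gene (60 kb, 60 kb and 80 kb). Most sites gather within a few kb of the middle, apart from PHD M880A at Rps2 with 3 sites inside and 3 outside the core (4 and 2 with gaps of 2000 bp), and the fullest PHD WT windows hold 7 sites at Rps2 and 6 at Purb and Tsc22d2. On a grid moved by 250 bp the fullest held 8 at Rps2, 6 at Purb and 4 at Tsc22d2.

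The first comparison of the design asks what the M880A substitution does to the PHD domain alone. PHD WT placed a larger share of its sites in all 3 cores: 13.8 times at Rps2 (exact conditional 95% interval 4.28 to 70.4), 5.73 times at Purb (2.30 to 17.1) and 2.75 times at Tsc22d2 (1.36 to 5.83). The loci nearly top the PHD WT list, so this direction is no finding. A ratio of at least 2, with 0.5 added to each count, was reached by 3 of 3 cores and by 96.4% of the 386 clusters with at least 10 sites over the pair compared. The ratios with 0.5 added were 12.0, 5.40 and 2.70, where the median cluster had 9.63. A higher ratio than that of Rps2 was found in 33.2% of the clusters, than that of Purb in 70.5% and than that of Tsc22d2 in 92.2%. The Rps2 ratio was 7.79 when the whole locus was counted. The Tsc22d2 ratio was 4.13 when the cluster was drawn from PHD WT sites alone, which shortens it to 4045 bp, and the Purb ratio was 3.75 among sites with at least 10 reads.

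For full-length TAF3 the same comparison did not involve PHD WT. The loci were chosen with earlier results known, so these values may not be free of the choice either. The Full WT share was 2.86 times that of Full M880A at Rps2 (1.28 to 6.70), 2.00 times at Purb (0.633 to 6.47) and 0.874 times at Tsc22d2 (0.269 to 2.52). The interval excluded 1 at Rps2 and held 1 at Purb and Tsc22d2, where a difference was not detectable at this depth. With 0.5 added, 1 of 3 cores reached a ratio of 2, against 45.7% of the 324 clusters holding 10 or more sites of the pair, so the count is close to the background. The Purb ratio with 0.5 added was 1.98, just under that limit. The median cluster had 1.75, and 26.9% of clusters exceeded Rps2, 45.7% Purb and 84.0% Tsc22d2. Among sites with at least 10 reads the Rps2 ratio was 4.54 (1.57 to 16.0).

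The ratio between the WT libraries of both lengths involves PHD WT, whose list the loci nearly top, so it is given as a description. The Full WT share was 0.677 of the PHD WT share at Rps2 (0.355 to 1.25), 0.361 at Purb (0.141 to 0.826) and 0.260 at Tsc22d2 (0.0876 to 0.647). A Full WT share at or below 0.5 of that of PHD WT, with 0.5 added to each count, was found at 2 of 3 cores and in 32.7% of 727 clusters. Here too the clusters had to hold at least 10 sites over the pair, which favours those rich in PHD WT. Rps2 stood at the median of all clusters, 0.677, with a value of 0.684 on that scale. Among sites with at least 10 reads the Purb interval held 1 (0.528, 0.178 to 1.42).

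Between the M880A forms, whose part in the choice is not known, Full M880A had 3.26 times the share of PHD M880A at Rps2 (0.860 to 18.2). At Purb it was 1.04 times (0.298 to 3.73) and at Tsc22d2 0.820 times (0.342 to 1.95). All 3 intervals held 1. A ratio of at least 2, with 0.5 added, was reached at 1 of 3 cores, Rps2, and by 75.2% of the 129 clusters with at least 10 sites over this pair. The median cluster had a ratio of 5.25, and 65.1%, 86.8% and 89.1% of clusters had a higher ratio than Rps2, Purb and Tsc22d2. The limit of 10 sites over the pair also favours clusters rich in Full M880A. Over the 1162 clusters the median was 3.00 Full M880A and 1.00 PHD M880A sites. The Rps2 ratio was 1.92 when the whole locus was counted.

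**Figure D4:**
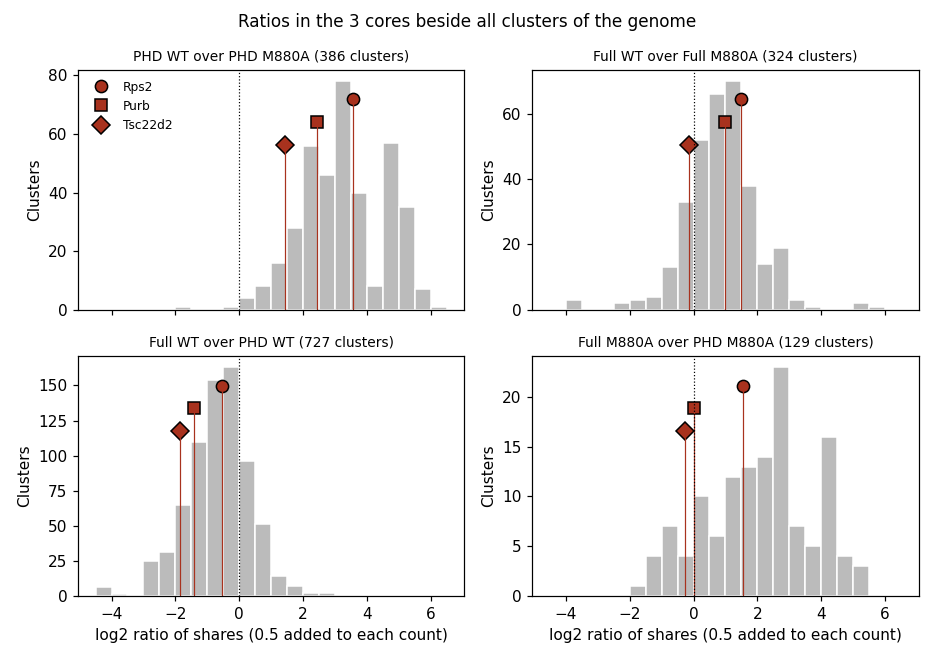
Grey bars count the clusters of the genome by the log2 ratio of shares between a pair of libraries (0.5 added to each count), and the marks show the 3 cores (circle Rps2, square Purb, diamond Tsc22d2, heights arbitrary). In each of the 4 pairs the order from low to high is Tsc22d2, Purb, Rps2, and Tsc22d2 lies at -0.14 for the Full pair and -0.28 for the M880A pair. The pairs share libraries, so the repeated order is no independent support.

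Exact positions recurred between libraries at Purb. The plus-strand position 6373625 was listed in Full WT (2 reads), Full M880A (3 reads) and PHD WT (7 reads), and the minus-strand position 6374545 in Full WT (845 reads) and PHD M880A (23 reads). Of 121567 distinct positions in the series, 425 occurred in 2 libraries, 17 in 3 and 1 in all 4. No position recurred in the Rps2 or Tsc22d2 core. Full WT came from another flow cell than the libraries it shared these positions with. Full M880A and PHD WT, which also share 6373625, came from the same flow cell. Leaving out positions of several libraries changed the Purb counts to 6, 6, 24 and 5 in Full WT, Full M880A, PHD WT and PHD M880A.

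HIV integrase joins the vector ends to the opposite strands of the target with a stagger of 5 bases, so a target used in both orientations gives a plus and a minus position 4 bp apart. Over all lists 590 such pairs were found, against 34 to 93 pairs at each other offset up to 20 bp in either direction, apart from 106 at 3 bp and 107 at 5 bp. Of the 590, 222 lay within 1 library and 368 between libraries. The 3 cores held 7 such pairs at 4 targets: 2 at Purb, 1 at Rps2 and 1 at Tsc22d2. At Purb, the recurrent plus position 6373625 was matched by a PHD WT site at 6373629 on the minus strand (99 reads), and the recurrent minus position 6374545 by a PHD WT site at 6374541 on the plus strand (38 reads). At Rps2 the pair was 24860981 and 24860985, both of PHD WT, with 171 and 36 reads. At Tsc22d2 it was a Full M880A site at 58220672 with 2 reads and a PHD WT site at 58220676 with 4. The recurrent positions of Purb were thus also members of pairs 4 bp apart. Whether such a pair reflects separate integrations in both orientations was not tested.

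The sites of the cores rested on very unequal read numbers. In the Rps2 core, Full WT sites had a median of 41.0 reads (3 to 235), Full M880A 4 (2 to 413), PHD WT 30.0 (2 to 956) and PHD M880A 38 (3 to 242). The medians over the whole lists were 41.0, 24.0, 29.0 and 23.0 in that order. The Full M880A sites at Rps2 thus had fewer reads than that library as a whole, and 6 of the 11 had under 10, against 34.8% of its list. In the Purb core the medians were 170, 10.0, 17.0 and 23.0, and 12 of the 25 PHD WT sites had under 10 reads, against 34.6% of the PHD WT list. In the Tsc22d2 core they were 54.0, 17.0, 16.5 and 42.0. With a minimum of 10 reads, Full WT, Full M880A, PHD WT and PHD M880A kept 15, 5, 21 and 2 sites at Rps2, 7, 4, 13 and 5 at Purb and 4, 7, 16 and 8 at Tsc22d2.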

How the data were processed

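For every library the authors deposited a BED file of 9 columns, with the start and end of each integration site (0-based, mm9). The file headers name paired-end integration sites as the content. The submitters' processing notes list the build mm9 and MACS 1.4.2 without a role. Aligner and filters: not given in the sources used here. In the deposited files the score is 0 throughout, and it was left out. The whole number after each read name was taken as reads, from its values; its minimum is 2. Per the labels' protocols, DNA was sheared to about 500 bp, amplified and read in pairs of 108 nt. PCR reads without molecular identifiers are not molecules, so distinct positions were counted, and intervals and floors cover counting error only.

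The junction (start plus 1 on the plus strand, end on the minus strand) was collapsed by chromosome, strand and position. Core clusters, 500 bp windows, ratios of shares with exact conditional binomial intervals, and exact Poisson intervals were computed with Python 3.11.15, numpy 2.4.6, pandas 2.3.3 and scipy 1.17.1. The code was tested on simulated data. The genes named are the 3 members and their nearest coding neighbours, with the noncoding genes that overlap Rps2 added later; motifs and strand runs were chosen after the sequences and positions had been seen. The members and lists were chosen with earlier results of these data known. Alternatives were gaps of 500 and 2000 bp, clusters drawn from PHD WT alone or without Full WT, at least 10 reads, merging of same-strand positions within 10 bp, shared positions left out, whole loci and a moved window grid. Site counts at Pura, Purg, the other TSC22 family genes and the other Rps genes were not analysed, for want of an mm9 annotation here.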

Additional observations from a re-analysis of the deposited data

Results flagged for a closer look

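At Tsc22d2 the WT to M880A ratio of shares was 2.75 for the PHD domain and 0.874 for full-length TAF3, opposite directions in the 2 lengths, with the PHD ratio 3.15 times the Full ratio. The difference was not tested, since each group is 1 library. The Full interval (0.269 to 2.52) held 1, and the Full ratio was 1.16 with the cluster drawn from PHD WT sites alone. The PHD ratio exceeded the Full ratio 4.81 times at Rps2 and 2.87 times at Purb too, where both ratios were above 1. The loci nearly top the PHD WT list, and Full WT had a flow cell of its own.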

How the results depend on the processing

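The 12 core ratios were computed under 8 alternatives, and each of the 96 values stayed within the counting interval of the value reported. The alternatives reuse most of the same sites and the intervals are wide. Staying inside them was therefore likely beforehand and is no independent support. The Tsc22d2 ratio of Full WT over Full M880A moved between 0.699 and 1.16 and so changed side of 1, and Full M880A over PHD M880A at Purb moved between 0.748 and 1.07. PHD WT over PHD M880A ranged from 7.79 to 15.2 at Rps2, 3.75 to 6.67 at Purb and 2.38 to 4.13 at Tsc22d2. Median positions, interquartile widths and the share of PHD WT sites in the fullest window stayed within their order-statistic or binomial intervals, but with few sites these span most of a core. The core edges were held fixed for these measures, so their dependence on the edges was not tested. The PHD M880A interquartile width went from 1039 to 76 bp at Rps2 and from 1084 to 382 bp at Purb with at least 10 reads. With gaps of 2000 bp the 1 Full WT flanking site at Purb joined the core, leaving 0 per 10000, and PHD M880A at Rps2 went from 0.860 to 0.573. Drawing clusters over gaps of 500 bp lowered the number at least 2-fold lower in Full WT against Full M880A from 12 to 6 (3.70% of 324 to 2.65% of 226 compared), and the number at least 2-fold higher in Full M880A against PHD M880A from 97 to 53 (75.2% of 129 to 68.8% of 77). A minimum of 10 reads left fewer clusters to compare. The number higher in PHD WT than PHD M880A went from 372 to 130 (92.2% of 141), higher in Full WT than Full M880A from 148 to 71 (44.7%) and lower from 12 to 4, higher in Full WT than PHD WT from 25 to 15 and lower from 238 to 109, and higher in Full M880A than PHD M880A from 97 to 36 (75%). No paired analysis was possible because each group has 1 library. With 3 to 30 sites per library and core, 6 of the 12 reported core ratios had an interval that held 1.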
